A study of Mus musculus with 18 samples.

Results

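Intracisternal A-particle (IAP) elements are mouse endogenous retroviruses, and 6 of the 906 repeat subfamilies measured in this series make up the group described here. They were chosen by name, as subfamilies starting with IAPEz, IAPLTR1 or IAPLTR2. IAPEz-int is the internal part, which holds the retroviral coding sequence, and IAPLTR1_Mm, IAPLTR1a_Mm, IAPLTR2_Mm, IAPLTR2a and IAPLTR2b are long terminal repeats (LTRs), the promoter-bearing ends. All 6 were above 0 in 18 of 18 libraries and all 6 were tested.

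RNA was sequenced from 18 libraries of E14Tg2a mouse embryonic stem cells, 3 per group. Daxx-null cells, for which the series design describes 1 engineered line, and the wild-type parental line were each grown in 3 cultures. The first medium held serum and LIF, the leukaemia inhibitory factor, at 1000 units/mL. The second was 2i, medium with inhibitors of GSK3 and MEK and with LIF, plus vitamin C (100 µg/mL), described by the labels as ground state. The third was retinoic acid (10 µM for 4 days after 24 hours without LIF), which starts neural differentiation. The labels do not say whether that line was a single clone, or whether the Daxx-null cells of the 3 cultures were the same clone or passage, so genotype and line cannot be told apart. The series design calls the replicates independent without saying how they were separated, so each p-value covers the spread among these libraries alone, which may be technical.

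An IAP element is a stretch of internal sequence between a pair of LTRs, and its RNA is made from the upstream LTR. In mouse embryonic stem cells these elements are held silent by Trim28, by Setdb1, which places methyl groups on lysine 9 of histone H3, and by DNA methylation. Daxx is a chaperone that places the histone variant H3.3 on such sequences together with Atrx. Culture in 2i lowers DNA methylation, and vitamin C promotes the Tet enzymes that remove it.

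The values are the authors' FPKM, here a subfamily's fragments per kilobase and per copy, scaled to a read set that lies mostly in repeats. Each value thus gives a part of the repeat reads, and says nothing of how much IAP RNA a cell holds in all. The scale of that read set, 10 M (1 M is 1000000), was inferred and not stated. On that scale 86.55 to 94.78% of a library's repeat set lay in annotated repeats, and the repeat set was 8.04 to 18.96 M counting units against 84.2 to 141.7 M for genes. A member rested on 824.9 to 2.51e+06 units. An SD given with a value is the spread between the libraries of its group. The SE of a log2 difference comes from an estimate of spread shared by all groups, so it is not the spread of the compared libraries alone. No source used here gives the assignment of reads that match several copies, and near-identical LTR subfamilies may share reads, so the split between them is uncertain.

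The members differ in size and age. IAPEz-int was annotated in 7826 pieces with a mean length of 1524.6 bases and 6.3% mean divergence from its consensus. The LTR subfamilies were shorter, with mean lengths between 308.7 bases (IAPLTR2b) and 450.3 bases (IAPLTR2_Mm). IAPLTR1_Mm, in 1511 pieces, had the lowest divergence of the 6 at 3.6%, and IAPLTR2_Mm, in 2285 pieces, the highest at 9.2%. IAPLTR1a_Mm (1945 pieces) stood at 5.8%, IAPLTR2b (1086 pieces) at 6.2% and IAPLTR2a (983 pieces) at 6.7%.

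Several libraries and groups stood apart in other RNAs. Daxx, the targeted gene, was read in serum at 68.7, 72.2 and 73.7 gene FPKM in Daxx-null libraries against 306.7, 319.1 and 353.1 in wild-type libraries. In 2i it was read at 54.4, 56.0 and 57.6 in Daxx-null libraries against 434.3, 422.7 and 401.7 in wild-type libraries. In retinoic acid it stood at 62.7, 61.7 and 60.8 in Daxx-null and 237.6, 241.8 and 265.2 in wild-type libraries. All 9 Daxx-null libraries lay below all 9 wild-type ones, and the labels do not say which part of the gene was removed. The summed FPKM of 4 Y-linked genes (Eif2s3y, Uty, Ddx3y, Kdm5d) was 2.18 to 2.74 in Daxx-null serum against 157.7 to 259.3 in wild-type serum, and 1.28 to 2.59 in Daxx-null against 155.8 to 165.7 in wild-type retinoic acid libraries. In 2i it was 183.3 to 244.7 in Daxx-null and 319.8 to 359.3 in wild type, so the Daxx-null 2i libraries differ in this RNA from the other Daxx-null libraries. Marker sums differed as well. Pluripotency genes, the check of the stem cell label, summed to 26550 to 32460 FPKM in Daxx-null against 25960 to 26970 in wild-type serum, and to 567.2 to 933.6 in Daxx-null and 622.7 to 802.8 in wild-type retinoic acid libraries. The retinoic acid sums were mostly Sox2, with a mean of 725.3 in Daxx-null and 508.1 in wild-type libraries. All other genes of that list had lower means in Daxx-null retinoic acid libraries, such as Pou5f1 (3.29 against 35.4) and Dppa5a (16.4 against 63.85). In 2i the pluripotency genes (8 of 8 measured) summed to 9793 to 19570 in Daxx-null and 23030 to 25330 in wild-type libraries. Primitive endoderm genes (8 of 8) summed to 384.4 to 940.1 in Daxx-null and 68.0 to 212.5 in wild-type 2i, and trophoblast genes (7 of 7) to 944.1 to 1038 in Daxx-null and 377.1 to 467.8 in wild-type 2i. Two-cell-like genes (8 of 8, with Tcstv1 and Tcstv3 at 0 in every library) summed to 248.4 to 315.8 in Daxx-null and 18.04 to 69.0 in wild-type 2i. In serum the endoderm sum was 124.9 to 159.7 in Daxx-null against 323.1 to 345.0 in wild-type libraries, and in retinoic acid 751.8 to 937.9 in Daxx-null against 1342 to 2994 in wild-type libraries. The two-cell-like sum in retinoic acid was 6.16 to 7.67 in Daxx-null against 45.45 to 64.6 in wild-type libraries. Neural genes (10 of 10) summed in 2i to 405.2 to 1805 in Daxx-null against 839.0 to 892.8 in wild-type libraries, and fibroblast genes (6 of 6) to 61.05 to 378.8 in Daxx-null against 19.6 to 100.6 in wild-type libraries. The second Daxx-null 2i library alone gave the top of the neural, fibroblast and endoderm ranges and the bottom of the pluripotency range. The other Daxx-null 2i libraries lay below wild type in the neural sum and within its range in the fibroblast sum. Tubb3, for example, stood at 213.3, 1204 and 164.4 FPKM in Daxx-null 2i, Col1a2 at 9.77, 96.6 and 10.6, and Pou5f1 at 5198, 1918 and 4250. The part of these differences in the IAP values was not tested, and in bulk RNA fewer cells of a type and less RNA per cell cannot be told apart.

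IAPEz-int was the most abundant member by counting units, and held 87.9 to 93.37% of the units of all 6 in each library. Its FPKM was 13.4, 14.35 and 14.9 in Daxx-null serum libraries, against 7.71, 7.84 and 9.52 in wild-type serum libraries. In 2i it was 105.5, 117.6 and 115.9 in Daxx-null against 44.8, 49.9 and 32.7 in wild-type libraries, and in retinoic acid 27.6, 27.8 and 29.35 in Daxx-null against 16.95, 16.7 and 23.7 in wild-type libraries. The 6 groups did not overlap, and ran in the order Daxx-null 2i, wild-type 2i, Daxx-null retinoic acid, wild-type retinoic acid, Daxx-null serum and wild-type serum.

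IAPLTR1_Mm, the LTR of lowest divergence, followed the same order, again with no overlap between neighbours. It was at 18, 19.8 and 20.9 FPKM in Daxx-null against 11.25, 11.6 and 13.3 in wild-type serum libraries, and at 221.2, 151.0 and 164.3 in Daxx-null against 58.8, 63.7 and 47.0 in wild-type 2i libraries. In retinoic acid it was at 34.3, 35.4 and 39.3 FPKM in Daxx-null against 22.1, 22.1 and 30.5 in wild-type libraries. The first Daxx-null 2i library was the highest of its group here, whereas its IAPEz-int value was the lowest of that group.

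The other 4 LTR subfamilies were read at far lower FPKM, and their orders differed. IAPLTR1a_Mm stood at 8.22, 5.18 and 5.81 in Daxx-null 2i and between 1.49 and 3.76 in the other 15 libraries. IAPLTR2_Mm stood at 9.59, 8.30 and 8.15 in Daxx-null 2i, at 5.31, 5.30 and 4.79 in wild-type 2i, and at 3.68 or below in serum and retinoic acid. IAPLTR2a varied least between groups, with group means of 3.88 (Daxx-null serum) to 6.07 FPKM (Daxx-null 2i), and its 5 lower groups each overlapped their neighbour. IAPLTR2b alone of the 6 had its highest group mean in retinoic acid, at 5.32 ± 0.25 FPKM in Daxx-null and 6.06 ± 0.52 FPKM in wild-type libraries (SD, n = 3 each).

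**Figure D1:**
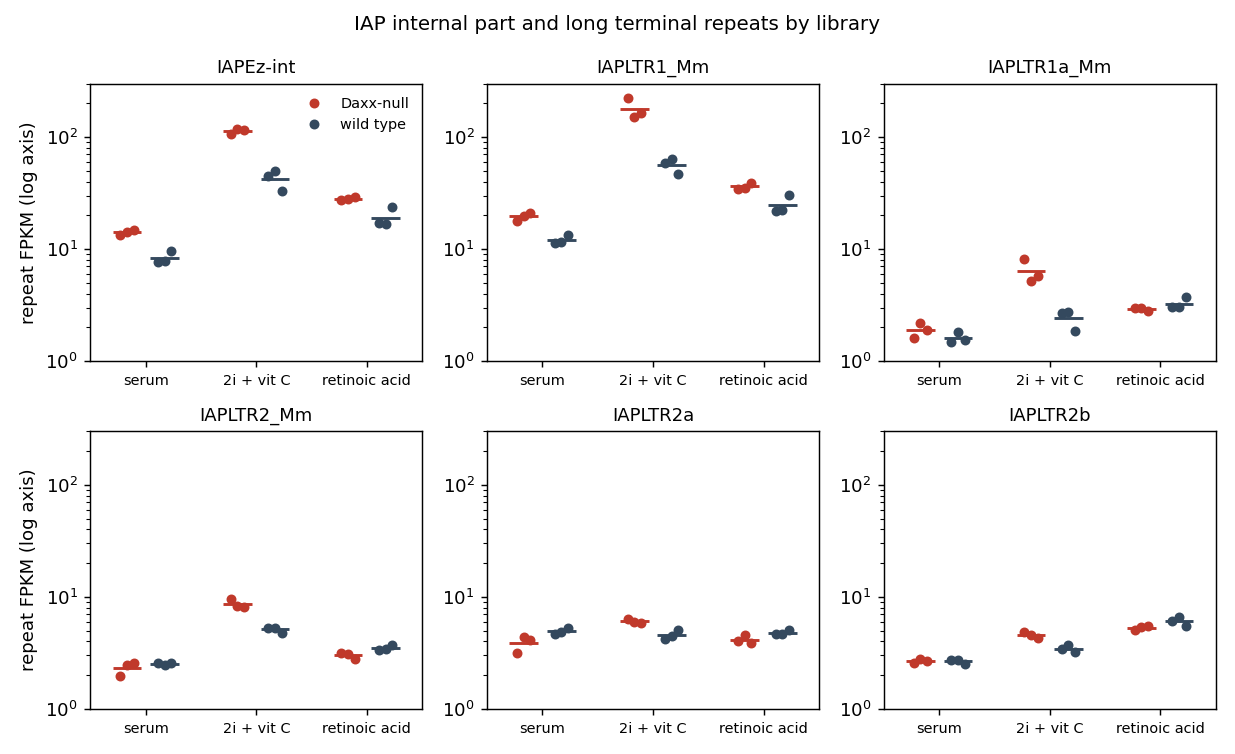
Repeat FPKM on a log axis for the 6 IAP subfamilies in 3 cultures, with Daxx-null libraries (red) left of wild-type libraries (dark grey); points are libraries and bars are group means. IAPEz-int and IAPLTR1_Mm reach 113.0 and 178.8 FPKM on average in Daxx-null 2i, while IAPLTR2a stays between 3.16 and 6.33 FPKM in all 18 libraries.

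In serum, loss of Daxx went with more IAPEz-int and IAPLTR1_Mm RNA, and no change was called for the other 4 LTR subfamilies. IAPEz-int was 1.66-fold higher in Daxx-null than in wild-type cells (log2 difference 0.73 ± 0.15, SE, adjusted p = 0.00666 by limma with Benjamini-Hochberg adjustment over 864 subfamilies). IAPLTR1_Mm was 1.6-fold higher (0.68 ± 0.16, adjusted p = 0.0146). Both differences hold in 3 of 3 Daxx-null libraries against 3 of 3 wild-type ones. With 2 of 6 members called higher and 0 lower, the share called over all subfamilies was 3.59% higher and 7.29% lower. The median log2 difference was 0.09 over the members and -0.10 over all subfamilies. Higher ones made up 33% of the called subfamilies as deposited, 55.9% with quantile normalization and 63.9% with median-ratio scaling.

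The remaining LTR subfamilies in serum had log2 differences of 0.18 (IAPLTR1a_Mm), -0.10 (IAPLTR2_Mm), -0.31 (IAPLTR2a, adjusted p = 0.0589) and 0.00 (IAPLTR2b). IAPEz-int kept its call in serum when any 1 library was left out. IAPLTR1_Mm lost it without the third Daxx-null serum library (adjusted p = 0.0631) and without the first (0.0603) or second (0.0534) wild-type serum library, and IAPLTR2a was called lower without the second Daxx-null serum library (0.0441) and without the third wild-type 2i library (0.0499). IAPLTR1_Mm also missed the threshold after quantile normalization (0.0886) and against gene depth (0.0602). The Y-linked sums given above differ between the same serum groups, and their part was not tested. Ribosomal RNA took 6.57 to 8.42% of repeat units in Daxx-null against 10.95 to 13.84% in wild-type serum libraries. Scaled to LTR, LINE and SINE units outside IAP, which hold no ribosomal RNA (an alternative chosen after seeing the data), IAPEz-int differed by 0.65 (adjusted p = 0.00802 by limma) and IAPLTR1_Mm by 0.59 (0.0222) in serum.

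In 2i with vitamin C, all 6 members were called higher in Daxx-null cells. The share called higher over all subfamilies was 17.8%, and 5.44% were called lower. IAPLTR1_Mm was 3.13-fold higher (1.64 ± 0.16, adjusted p = 5.1e-06) and IAPEz-int 2.68-fold higher (1.42 ± 0.15, adjusted p = 1.4e-05). From the highest difference down they stood at ranks 9 and 16 of 864. IAPLTR1a_Mm was 2.32-fold higher (1.22 ± 0.16, adjusted p = 1.0e-04) and stood at rank 25.

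The IAPLTR2 subfamilies differed less in 2i. IAPLTR2_Mm was 1.63-fold higher (0.70 ± 0.08, adjusted p = 5.5e-05). IAPLTR2a was higher by 0.38 ± 0.10 (adjusted p = 0.0158), with 6.33, 5.99 and 5.89 FPKM in Daxx-null against 4.18, 4.51 and 5.01 in wild-type libraries. IAPLTR2b was higher by 0.37 ± 0.07 (adjusted p = 0.00218), with 4.88, 4.60 and 4.33 FPKM in Daxx-null against 3.40, 3.69 and 3.21 in wild-type libraries. In each of the 6 members the 3 Daxx-null libraries lay above the 3 wild-type ones.

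The median log2 difference in 2i was 0.96 over the members and 0.13 over all subfamilies. With values as deposited, 76.6% of the called subfamilies were higher, against 31.6% with quantile normalization, 45.4% with median-ratio scaling and 89.9% with values set against gene depth. IAPEz-int was higher by 1.05, 1.30 and 1.57 under these 3 scalings, so the direction of this member did not depend on them. IAPLTR2a lost its call after quantile normalization (0.22, adjusted p = 0.0728) and without the first wild-type 2i library (0.32, adjusted p = 0.0621). With only the 2i libraries fitted, the adjusted p was 0.112 for IAPLTR2a and 0.105 for IAPLTR2b. The endoderm, trophoblast and two-cell-like sums were also higher, and the pluripotency sum lower, in these Daxx-null libraries.

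As a share of all repeat counting units, IAPEz-int took 13.3, 15.0 and 14.6% in Daxx-null against 5.71, 6.36 and 4.24% in wild-type 2i libraries. In serum it took 1.75, 1.87 and 1.94% in Daxx-null against 1.00, 1.03 and 1.26% in wild-type libraries, and in retinoic acid 3.78, 3.82 and 4.05% in Daxx-null against 2.33, 2.28 and 3.24% in wild-type libraries. All 6 members together took 15.55 ± 0.65% in Daxx-null and 5.88 ± 1.14% in wild-type 2i libraries (SD, n = 3 each). Of the gene read set, 58.16 to 60.96% lay in exons, and whether it also holds repeat reads is not known from the files. Set against it, IAPEz-int gave 21.0, 18.8 and 26.2 units per 1000 gene units in Daxx-null against 8.37, 9.39 and 4.92 in wild-type 2i libraries. The genotypes did not overlap under either denominator in any of the 3 cultures.

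**Figure D2:**
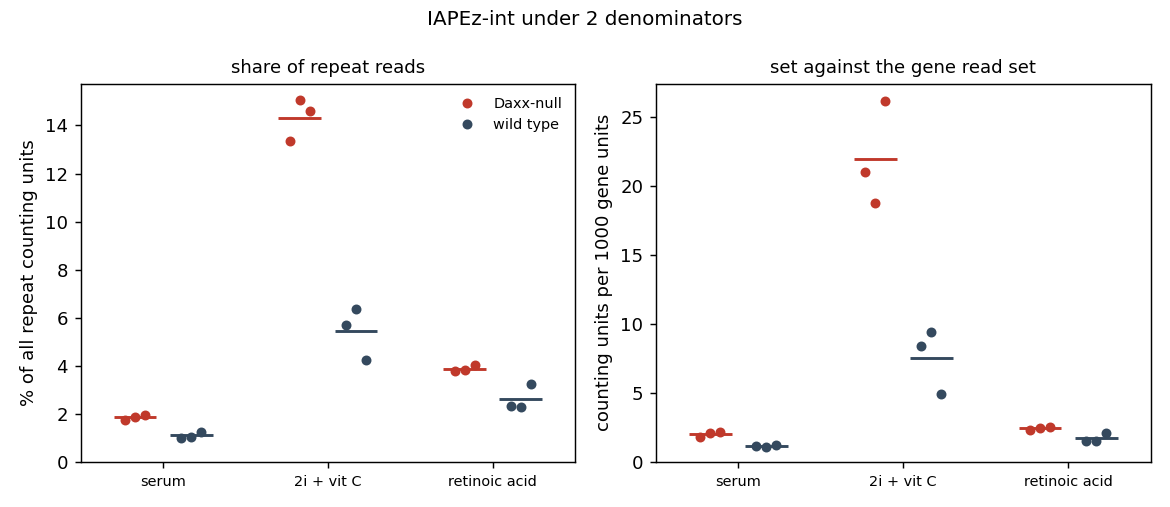
IAPEz-int as a percentage of all repeat counting units (left) and as counting units per 1000 gene units (right), in Daxx-null (red) and wild-type (dark grey) libraries of 3 cultures; points are libraries and bars are group means. Daxx-null 2i libraries average 14.3% and 21.98 units per 1000, and the retinoic acid groups lie closer to the serum groups on the right (2.42 in Daxx-null and 1.72 units per 1000 in wild type) than on the left.

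In retinoic acid, no member was called in either direction by limma, and 4 of 6 had an unadjusted p under 0.05 (IAPEz-int and IAPLTR1_Mm higher, IAPLTR2_Mm and IAPLTR2b lower). The share of subfamilies called was 0.116% higher and 1.04% lower. IAPEz-int was 1.48-fold higher in Daxx-null cells (0.57 ± 0.15, adjusted p = 0.077) and IAPLTR1_Mm 1.46-fold higher (0.55 ± 0.16, adjusted p = 0.0891), and in both the groups did not overlap. The other 4 LTR subfamilies had log2 differences of -0.13 (IAPLTR1a_Mm), -0.19 (IAPLTR2_Mm), -0.18 (IAPLTR2a) and -0.17 (IAPLTR2b). The members' median was -0.15, beside -0.10 over all subfamilies, of which 1 was called higher and 9 lower as deposited, 0 and 3 with quantile normalization, and 1 and 1 against the units of other LTR, LINE and SINE subfamilies.

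The third wild-type retinoic acid library held more IAPEz-int (23.7 FPKM) than the other 2 wild-type libraries (16.95 and 16.7 FPKM). Without it the IAPEz-int difference was 0.73 and the adjusted p 0.0427. Leaving out the third wild-type 2i library, which enters only through the shared estimate of spread, gave an adjusted p of 0.0312 for the same difference of 0.57. Without both, the adjusted p was 0.00412 for IAPEz-int and 0.0455 for IAPLTR1_Mm. The same wild-type retinoic acid library also stood apart in Dnmt3l, as given below. Ribosomal RNA took 7.99 to 9.23% of repeat units in Daxx-null against 5.25 to 5.69% in wild-type retinoic acid libraries, the opposite order to serum. Against the LTR, LINE and SINE units outside IAP, IAPEz-int differed by 0.67 (adjusted p = 0.0605) and IAPLTR1_Mm by 0.65 (0.1) in retinoic acid.

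The difference of the Daxx effect between 2i and serum was called for all 6 members, each with the larger effect in 2i. Over all subfamilies 17.6% were called higher and 4.28% lower. The differences of log2 effects were 0.69 ± 0.21 (IAPEz-int, adjusted p = 0.0358), 0.97 ± 0.22 (IAPLTR1_Mm, 0.00846) and 1.04 ± 0.22 (IAPLTR1a_Mm, 0.00578). For the IAPLTR2 subfamilies they were 0.80 ± 0.12 (IAPLTR2_Mm, adjusted p = 0.00049), 0.69 ± 0.14 (IAPLTR2a, 0.00507) and 0.37 ± 0.10 (IAPLTR2b, 0.0163). The members' median was 0.74, beside 0.21 over all subfamilies.

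This comparison depended on the scaling. Under quantile normalization and under median-ratio scaling 3 of 6 members were called, IAPLTR1a_Mm, IAPLTR2_Mm and IAPLTR2a, and the IAPEz-int difference was 0.25 (adjusted p = 0.527) and 0.45 (0.21). Against gene depth it was 0.77 (0.0634). With values as deposited, 80.4% of called subfamilies were higher, against 37.6% with quantile normalization, 46.7% with median-ratio scaling and 86.9% with gene depth. IAPEz-int also lost its call when 1 of 6 libraries was left out, with adjusted p of 0.0856 and 0.0525 without Daxx-null serum replicate 1 or 2, 0.0628 and 0.0524 without Daxx-null 2i replicate 2 or 3, 0.0802 without the third wild-type serum library and 0.0594 without the third wild-type 2i library. With only the serum and 2i groups fitted, its adjusted p was 0.0535. Y-linked RNA summed to 183.3 to 244.7 FPKM in Daxx-null 2i against 2.18 to 2.74 in Daxx-null serum, and culture and a possible difference of clone or passage cannot be told apart here. Between retinoic acid and serum no member was called by limma, 0 had an unadjusted p under 0.05, and 0.463% of subfamilies were called higher and 1.62% lower. Higher ones were 22.2% of those calls as deposited and 38.9% with quantile normalization.

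**Figure D3:**
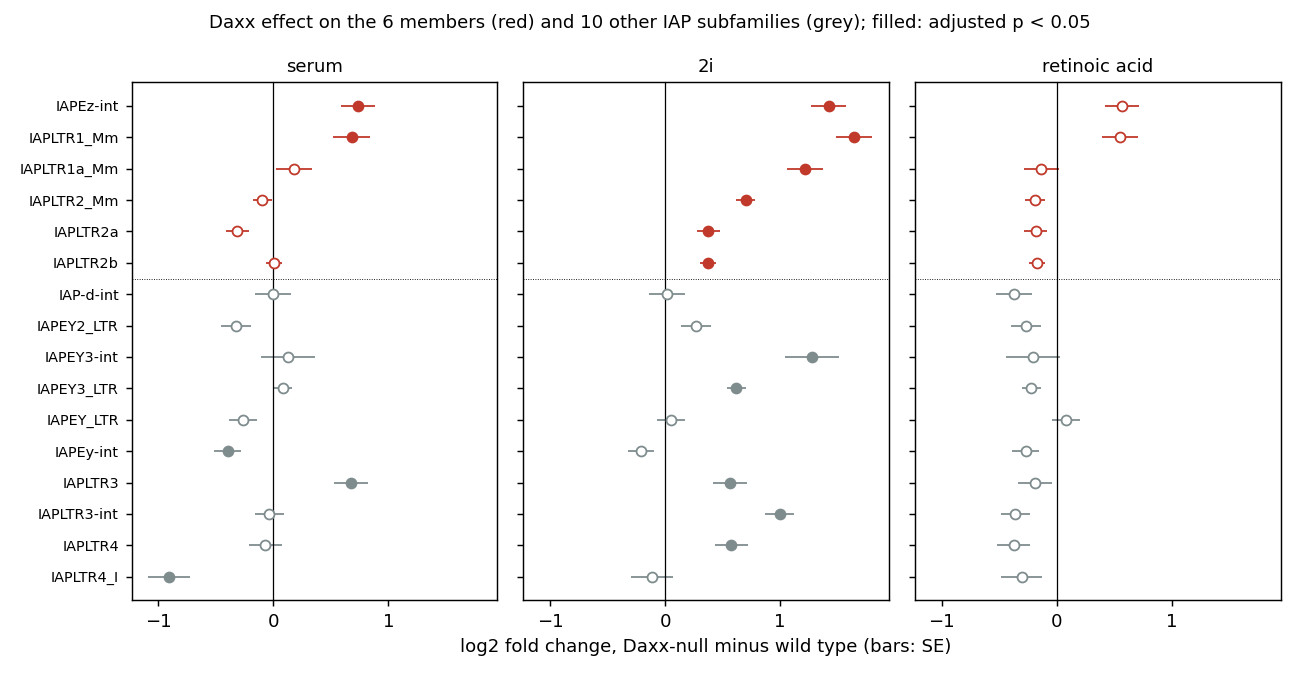
Log2 fold change of Daxx-null over wild-type cells (x axis; bars are SE) for the 6 members in red and 10 other IAP subfamilies in grey, in serum, 2i and retinoic acid; filled points have an adjusted p under 0.05. In 2i all 6 members lie right of 0, between 0.37 and 1.64, and in retinoic acid no point is filled.

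IAPEz-int and IAPLTR1_Mm were higher in 2i than in serum in both genotypes. In wild-type cells IAPEz-int was 4.78-fold higher in 2i than in serum (2.26 ± 0.15, adjusted p = 5.1e-08) and IAPLTR1_Mm 4.51-fold higher (2.17 ± 0.16, adjusted p = 1.1e-07). IAPLTR2_Mm (0.89), IAPLTR1a_Mm (0.46) and IAPLTR2b (0.31) were also called higher, and IAPLTR2a (-0.10) was not called. That made 5 of 6 members higher and 0 lower, where 9.84% of subfamilies were called higher and 50.5% lower. The members' median was 0.68, beside -0.36 over all subfamilies.

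IAPLTR1a_Mm lost this call without wild-type serum replicate 1 or 3 (adjusted p = 0.062 and 0.053) and without wild-type 2i replicate 1 or 2 (0.0733 and 0.0802), and with a pseudocount 10 times larger (0.16, adjusted p = 0.0774). Under median-ratio scaling, which brings the median over all subfamilies to -0.01, IAPEz-int was higher by 2.67 and IAPLTR2a by 0.28 (adjusted p = 0.0265), so the direction of IAPLTR2a turned with the scaling. Of all called subfamilies, 16.3% were higher with values as deposited, 40.5% with quantile normalization, 51.8% with median-ratio scaling and 46.5% with gene depth.

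In Daxx-null cells all 6 members were called higher in 2i than in serum, where 17.5% of subfamilies were called higher and 32.2% lower. The log2 differences were 2.95 (IAPEz-int), 3.14 (IAPLTR1_Mm), 1.50 (IAPLTR1a_Mm), 1.69 (IAPLTR2_Mm), 0.59 (IAPLTR2a) and 0.68 (IAPLTR2b). IAPLTR1_Mm was 8.81-fold and IAPEz-int 7.70-fold higher. The members' median was 1.595, beside -0.13 over all subfamilies, and the 6 members were called higher under each of the 4 other scalings, although the share of called subfamilies that were higher was 35.2% as deposited, 51% with median-ratio scaling and 83.2% with gene depth. The Y-linked sum differed between the same groups, at 183.3 to 244.7 in 2i against 2.18 to 2.74 FPKM in serum, so culture and a possible difference of clone or passage cannot be told apart.

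Retinoic acid gave a call that rested on the denominator. As a share of repeat reads, 5 of 6 members were called higher than in serum in wild-type cells, where 50.7% of subfamilies were called higher and 8.33% lower, and IAPEz-int differed by 1.13 ± 0.15 (adjusted p = 2.7e-05). In Daxx-null cells 5 of 6 were also called higher, where 49.7% of subfamilies were called higher and 11.5% lower, and IAPEz-int differed by 0.97 ± 0.15 (adjusted p = 9.0e-05). IAPLTR2a was the member not called in both. The median over all subfamilies was itself 0.30 in both genotypes, beside 0.92 over the members in wild-type and 0.69 in Daxx-null cells.

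Set against the gene read set, the repeat set was 6.97 to 7.42% in Daxx-null and 7.44 to 7.68% in wild-type retinoic acid libraries, and 11.06 to 12.2% in Daxx-null against 10.5 to 12.15% in wild-type serum libraries. Against gene depth the median over all subfamilies was -0.18 in wild-type and -0.27 in Daxx-null cells. On that scale IAPEz-int (0.57, adjusted p = 0.033) and IAPLTR2b (0.52, 0.00627) were called higher and IAPLTR2a (-0.55, 0.00491) lower in wild-type cells. In Daxx-null cells 0 members were called higher and IAPLTR2a was called lower (-0.53, adjusted p = 0.00448). Of called subfamilies, 81.2% were higher in Daxx-null cells as deposited, 50.1% with quantile normalization and 19.1% with gene depth, and in wild-type cells 85.9%, 47% and 25.4%.

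Ratios of 2 subfamilies within a library do not depend on the total to which repeat reads were scaled. The log2 ratio of IAPEz-int to IAPLTR2_Mm was 2.77, 2.53 and 2.54 in Daxx-null against 1.59, 1.67 and 1.90 in wild-type serum libraries, and 3.46, 3.82 and 3.83 in Daxx-null against 3.08, 3.23 and 2.77 in wild-type 2i libraries. In retinoic acid it was 3.14, 3.17 and 3.39 in Daxx-null against 2.33, 2.28 and 2.69 in wild-type libraries. The genotypes did not overlap in any culture. The mean of the 3 within-culture differences was 0.79 (exact two-sided permutation of genotype within cultures, p = 0.00025, the smallest that 9 libraries per genotype can give here; adjusted p = 0.001667 over 20 ratio tests).

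The ratio of the LTR subfamilies IAPLTR1_Mm to IAPLTR2_Mm behaved in the same way, with a mean log2 difference of 0.83 (exact permutation p = 0.00025, adjusted p = 0.001667). In serum it averaged 3.07 ± 0.11 in Daxx-null against 2.25 ± 0.12 in wild-type libraries (SD, n = 3 each). In 2i it averaged 4.35 ± 0.17 in Daxx-null against 3.45 ± 0.15 in wild-type libraries, and in retinoic acid 3.59 ± 0.19 in Daxx-null against 2.82 ± 0.20 in wild-type libraries. Within a culture 3 against 3 libraries cannot give an exact permutation p below 0.1, which each culture reached for both ratios.

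The ratio of the internal part to its LTR, IAPEz-int to IAPLTR1_Mm, showed no difference that passed the test, at -0.04 on the log2 scale (exact permutation p = 0.8555). In 2i it was -1.07, -0.36 and -0.50 in Daxx-null against -0.39, -0.35 and -0.52 in wild-type libraries, and the first Daxx-null library stood apart from the other 5. Without that library the mean difference was 0.03 (exact permutation p = 0.358), with its sign turned. In serum and retinoic acid the genotypes overlapped.

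**Figure D4:**
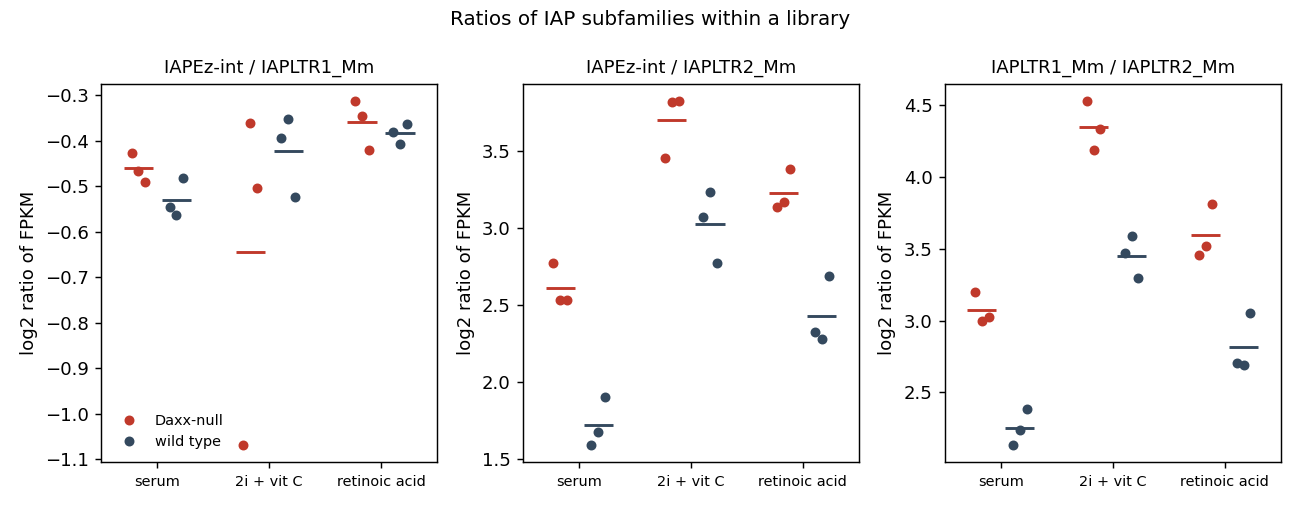
Log2 ratio of FPKM within a library for IAPEz-int to IAPLTR1_Mm, IAPEz-int to IAPLTR2_Mm and IAPLTR1_Mm to IAPLTR2_Mm, in Daxx-null (red) and wild-type (dark grey) libraries of 3 cultures; points are libraries, bars are group means, and each panel has its own axis. The genotypes are apart in every culture in the middle and right panels, and 1 Daxx-null 2i library lies at -1.07 in the first.

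IAPEz-int was also set against internal parts of 2 other families of the same class of retroviruses, ERVK. MMERVK10C-int was higher in Daxx-null than wild-type serum by 0.61 ± 0.13 (adjusted p = 0.0086) and in 2i by 2.04 ± 0.13 (adjusted p = 1.3e-07), and the log2 ratio of IAPEz-int to it was lower in 2i, at 2.06, 2.13 and 1.93 in Daxx-null against 2.79, 2.85 and 2.57 in wild-type libraries. In retinoic acid the ratio was higher, at 1.56, 1.59 and 1.76 in Daxx-null against 0.77, 0.73 and 1.15 in wild-type libraries. In serum the genotypes overlapped, and the mean over cultures was 0.05 (exact permutation p = 0.7782), a mean of differences with opposite signs.

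MMETn-int, the internal part of the early transposon family, went the other way in 2i. It stood at 120.7, 126.6 and 125.2 FPKM in Daxx-null against 417.1, 425.1 and 349.4 in wild-type 2i libraries (log2 difference -1.67 ± 0.09, adjusted p = 2.9e-08). The log2 ratio of IAPEz-int to MMETn-int differed by 3.11 in 2i, 0.49 in serum and 0.71 in retinoic acid, with no overlap in any culture and a mean of 1.44 (exact permutation p = 0.00025, adjusted p = 0.001667).

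Of the 10 other IAP subfamilies, 5 were called higher in Daxx-null 2i and 0 lower, where 17.8% of all subfamilies were called higher and 5.44% lower. In serum 1 was called higher, IAPLTR3 (0.67, adjusted p = 0.0101), and 2 lower, IAPLTR4_I (-0.91, 0.0061) and IAPEy-int (-0.40, 0.0441). The serum shares over all subfamilies were 3.59% higher and 7.29% lower. In retinoic acid 0 were called by limma, and 5 had an unadjusted p under 0.05, with 0.116% of all subfamilies called higher and 1.04% lower. IAPEy-int, IAPEY_LTR and IAP-d-int followed culture without a called Daxx effect in 2i. IAPEy-int stood at 25.1, 33.1 and 24.5 FPKM in Daxx-null and 29.2, 29.65 and 36.5 in wild-type 2i libraries, and between 0.193 and 0.529 in the serum libraries. Its log2 difference between 2i and serum was 5.24 in Daxx-null and 5.05 in wild-type cells (adjusted p = 1.4e-13 and 1.2e-13), and its Daxx effect in 2i was -0.21 ± 0.12 (adjusted p = 0.204). IAPEY_LTR and IAP-d-int were higher in 2i than serum by 2.99 and 2.73 in wild-type cells, with Daxx effects in 2i of 0.05 (adjusted p = 0.776) and 0.02 (0.944). Whether the Daxx effect on these subfamilies differs from that on IAPEz-int was not tested.

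The profiles most like that of IAPEz-int were ranked by root mean square distance in log2 over the 18 libraries, each profile centred on its own mean, as a description. IAPLTR1_Mm lay at 0.16, nearer than any other IAP subfamily. Outside the IAP names the nearest repeats were MMVL30-int (0.59), tRNA-Pro-CCY (0.59) and MMERVK10C-int (0.65). The nearest genes were Slc39a2 (0.35), which encodes a zinc transporter, Lxn (0.40), which encodes the carboxypeptidase inhibitor latexin, and Tmem173 (0.40), which encodes the innate immune adaptor STING. Slc39a2 averaged 16.8 FPKM in Daxx-null and 5.16 in wild-type 2i, and 1.37 in Daxx-null against 0.726 in wild-type serum. All of these genes and repeats had the higher mean in Daxx-null 2i, but only Slc39a2 and tRNA-Pro-CCY had it in every culture. Tmem173 averaged 3.16 in Daxx-null against 3.52 in wild-type serum, and MMVL30-int 2.92 against 4.11. In retinoic acid Lxn averaged 67.2 in Daxx-null against 74.85 in wild type, and MMERVK10C-int 9.11 against 10.23.

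Genes of pathways tied to IAP silencing were examined as a list of 38, all tested. The list holds Daxx, the targeted gene, which is counted among the genes called lower in each culture. It also holds Tet1 and Tet2, whose enzymes remove DNA methylation. Tet2 was called higher in serum, and both were called lower in 2i. In serum 13 of the 38 were called higher and 2 lower in Daxx-null cells, where 9.29% of 18002 genes were called higher and 18.9% lower, and the list median was 0.17 beside -0.12 over all genes. Besides Daxx itself (-2.18 ± 0.07, adjusted p = 2.4e-11), the largest differences were in Mettl3, the catalytic subunit of the RNA adenosine methyltransferase, at 171.2, 170.1 and 175.8 FPKM in Daxx-null against 105.3, 115.4 and 83.3 in wild-type libraries (0.78, adjusted p = 0.0003). Atf7ip, a partner of Setdb1, stood at 298.4, 309.9 and 307.0 FPKM in Daxx-null against 168.1, 156.7 and 217.0 in wild-type libraries (0.77, adjusted p = 0.0011). Asf1a, a chaperone of histones H3 and H4, stood at 292.3, 243.3 and 255.9 FPKM in Daxx-null against 160.1, 183.5 and 133.3 in wild-type libraries (0.74, adjusted p = 0.00097). The number called higher was 8 without the third wild-type serum library.

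In 2i 6 of the 38 genes were called higher and 16 lower, where 31.5% of genes were called higher and 15.3% lower, and the list median was -0.13 beside 0.20 over all genes. Dnmt3l, a cofactor of DNA methylation, was lower, at 140.4, 39.5 and 95.6 FPKM in Daxx-null against 262.7, 354.9 and 130.6 in wild-type libraries (-1.50 ± 0.50, adjusted p = 0.022), with groups that overlapped. It lost this call without the second Daxx-null (adjusted p = 0.112), first wild-type (0.0606) or second wild-type (0.0931) 2i library. Cbx3, a protein that binds methylated lysine 9 of histone H3, was lower in Daxx-null cells, at 174.8, 109.0 and 146.0 FPKM against 266.7, 236.1 and 293.8 in wild-type libraries (-0.91, adjusted p = 0.00049). Dnmt3a, a DNA methyltransferase, was higher in Daxx-null cells, at 62.2, 96.0 and 76.7 FPKM against 47.7, 45.7 and 39.3 in wild-type libraries (0.80, adjusted p = 0.00016).

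Named outside the rule, after their values were seen, Dnmt1, which maintains DNA methylation, was lower by -0.46 (adjusted p = 0.00085) and Uhrf1, which brings Dnmt1 to replicated DNA, by -0.66 (adjusted p = 6.1e-05) in the same libraries. Setdb1, Trim28, Atrx and Hira were not called in 2i. The part of these genes in the IAP values was not tested.

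In retinoic acid 1 of the 38 genes was called higher and 2 lower, where 0.222% of genes were called higher and 2.27% lower, and the list median was 0.04 beside -0.05 over all genes. Daxx (-1.997 ± 0.07, adjusted p = 3.7e-11) and Dnmt3l (-3.24 ± 0.50, adjusted p = 0.0014) were lower. Dnmt3l stood at 1.74, 3.19 and 1.75 FPKM in Daxx-null against 14.4, 16.3 and 62.2 in wild-type libraries, the last being the library with the higher IAPEz-int value. Uhrf1 was higher (0.40, adjusted p = 0.036), with 403.0, 352.0 and 329.0 FPKM in Daxx-null against 274.7, 263.3 and 282.7 in wild-type libraries. It lost this call, at adjusted p of 0.0521 to 0.192, without Daxx-null retinoic acid replicate 1 or 2, any 1 wild-type retinoic acid library, Daxx-null serum replicate 2, or wild-type serum replicate 1 or 2.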

How the data were processed

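RNA from 18 libraries was analysed, 3 per group of genotype and culture. Per the labels' protocols, RNA was enriched with oligo-dT beads and depleted of ribosomal RNA. The series design speaks only of ribosomal depletion of total RNA, so it is not settled whether the values cover polyadenylated RNA or all RNA. Tools named in the submitters' processing notes were HOMER 4.8, Bowtie2 2.2.6 and limma, with the mm9 build. The authors deposited FPKM for 24505 gene entries and 906 repeat subfamilies. Other columns in the deposited repeat files give mean length, copies and divergence. The deposited log2 table was within 4.99e-09 of log2(quantile-normalized FPKM + 1) among genes above the median, and served as an alternative for genes. Strand and the counting of multi-mapping reads are not given in the sources used here. Depth was recovered from steps between low values (whole within 0.1).

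The test was limma 3.58.1 (R 4.3.3). For repeats it took log2(FPKM + 0.526), a pseudocount at percentile 5 of nonzero values, and the 864 subfamilies that exceeded 0 in 9 or more libraries. For genes it took log2(FPKM + 0.5) and the 18002 with FPKM 1 or more in 3 or more libraries. A fold is on these scales and understates change at low values. One fit held all 18 libraries with 6 group means and a variance trend, and was tested on simulated data. Calls had a Benjamini-Hochberg adjusted p under 0.05 over all features. Ratios were tested by exact permutation. Every member is named; of silencing genes, Daxx and up to 4 called genes of largest change per contrast. Members and lists were chosen with earlier results of these data known.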

Additional observations from a re-analysis of the deposited data

Results flagged for a closer look

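The Daxx effect differed between 2i and serum in 6 members by a test of the difference itself, limma's interaction of genotype and culture with adjustment over 864 subfamilies, and that test is what flagged them. The difference, effect in 2i minus effect in serum on the log2 scale, was 0.69 for IAPEz-int (adjusted p = 0.0358), 0.97 for IAPLTR1_Mm (0.00846) and 1.04 for IAPLTR1a_Mm (0.00578). It was 0.80 for IAPLTR2_Mm (0.00049), 0.69 for IAPLTR2a (0.00507) and 0.37 for IAPLTR2b (0.0163). Over all subfamilies 17.6% were called higher and 4.28% lower. Under quantile normalization and under median-ratio scaling 3 of the 6 members kept their call. IAPEz-int lost its call under both, at 0.25 (adjusted p = 0.527 by limma) and 0.45 (0.21). The 6 values come from the same 12 libraries, and the shared scaling enters all of them. In those libraries Y-linked RNA summed to 183.3 to 244.7 FPKM in Daxx-null 2i and 2.18 to 2.74 in Daxx-null serum, and culture and a possible difference of clone or passage cannot be told apart.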

How the results depend on the processing

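The values limit what can be said in 3 ways: they are shares of repeat reads on an inferred scale, reads of similar copies cannot be assigned with certainty, and 3 libraries per group carry the spread. In 2i the Daxx differences of the 6 members kept their direction under every alternative run, but not all kept their call. IAPLTR2a lost its call after quantile normalization, with only the compared groups fitted and without the first wild-type 2i library. IAPLTR2b lost its call with only the compared groups fitted. In serum 1 member was called higher after quantile normalization and against gene depth, and 1 lower against other LTR, LINE and SINE units (chosen after seeing the data). Over all subfamilies these scalings, in that order, called 57, 21 and 25 higher, and 45, 29 and 115 lower. Leaving out 1 library gave 1 to 2 higher and 0 to 1 lower in serum, and 0 to 1 higher in retinoic acid. Without Daxx-null 2i replicate 1 and wild-type 2i replicate 3, and without replicate 3 of wild-type retinoic acid and of wild-type 2i (both chosen after seeing the data), 2 were called higher in retinoic acid. Counts over all subfamilies are not given here for the runs with libraries left out. The 2i minus serum difference was called in 3 members under quantile and median-ratio scaling. Over all subfamilies these scalings called 53 and 78 higher, and 88 and 89 lower. Retinoic acid against serum gave 3 higher and 1 lower (quantile), 4 higher and 1 lower (median-ratio), and 2 higher and 1 lower (gene depth) in wild type. In Daxx-null cells it gave 2 and 1 (quantile), 3 and 1 (median-ratio), and 0 and 1 (gene depth). The numbers called over all subfamilies, in the same order, were 175, 175 and 95 higher and 197, 194 and 279 lower in wild type. In Daxx-null cells they were 192, 199 and 88 higher and 191, 230 and 372 lower. The cause of these changes was not tested.

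Signs turned for some log2 values. The turned values that limma called were all of IAPLTR2a. They were 2i minus serum in wild type (median-ratio, adjusted p = 0.0265) and retinoic acid minus serum in Daxx-null cells. The latter had adjusted p of 0.0459 (quantile), 0.0348 (median-ratio) and 0.00448 (gene depth). In serum, IAPLTR2_Mm was 0.0291 (quantile) and 0.0029 (median-ratio), with leave-one-out values of -0.16 to 0.0010, and IAPLTR2b was -0.0756 against other LTR, LINE and SINE units, with -0.0345 to 0.0270 (-0.0246, -0.0002 and -0.0345 without Daxx-null serum replicate 2, Daxx-null serum replicate 3 and wild-type serum replicate 3). The difference of Daxx effect in retinoic acid minus serum was 0.0224 (IAPEz-int), 0.0589 (IAPLTR1_Mm) and 0.0692 (IAPLTR2_Mm) against those units, and 0.0227 for IAPLTR1_Mm without the third wild-type retinoic acid library, with or without the third wild-type 2i library (leave-one-out -0.21 to 0.02). IAPLTR2a in wild type, 2i minus serum, was 0.20 (quantile), 0.28 (median-ratio) and 0.24 (gene depth). In wild-type retinoic acid minus serum IAPLTR2_Mm was -0.0903 (gene depth), and IAPLTR2a 0.0248 against those units and 0.0119 without the third serum library (leave-one-out -0.0776 to 0.0119). In Daxx-null retinoic acid minus serum IAPLTR1a_Mm was -0.0666 and IAPLTR2_Mm -0.28 (gene depth), IAPLTR2_Mm -0.0205 (median-ratio), and IAPLTR2a -0.23 (quantile), -0.26 (median-ratio), -0.53 (gene depth) and -0.0323 without the first serum library (leave-one-out -0.03 to 0.17).

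Among single members and genes whose sign held, calls were lost in 30 values under other settings and in 27 with libraries left out, and gained in 5 and 8. The IAPEz-int to IAPLTR1_Mm ratio ran from -0.0894 to 0.0284 when 1 library was left out and was 0.0117 without Daxx-null 2i replicate 1 and wild-type 2i replicate 3. The ratio to MMERVK10C-int ran from -0.0011 to 0.11. Of silencing genes, 4 were called lower in serum, 10 lower in 2i, and 0 higher and 1 lower in retinoic acid with only the compared groups fitted, and leaving out 1 library gave 8 to 16 higher in serum and 0 to 1 higher in retinoic acid. Same-numbered Daxx-null and wild-type deviations within a culture correlated at -0.154 to 0.109. Replicate structure shared across cultures was not tested. For IAPEz-int the third wild-type library was the highest of its group in serum and retinoic acid and the lowest in 2i. With the replicate number as a block, member counts were 2, 6 and 0 higher in serum, 2i and retinoic acid, silencing genes had 12 higher in serum and 15 lower in 2i, and the 3 ratio tests past the threshold had an exact p of 0.00391.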
